A study of Mus musculus with 17 samples.

Results

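The genes described here build, divide and fold mitochondria: *Mfn1*, *Mfn2*, *Opa1*, *Dnm1l*, *Fis1*, *Mff*, *Mief1*, *Mief2*, *Immt* and *Chchd3*. They were chosen by name from the deposited gene table, where each symbol matched 1 row, so that they are 10 of 56748 rows. All 10 had enough reads to be tested, among 16195 genes that were. The table holds read counts from heart tissue of mice aged 12 to 16 months that had received no treatment, with 1 library per mouse. The 9 hMut hearts carried the genotype *Polg* iMut/iMut; +/Ckmm-cre. In the iMut allele a floxed wild-type cDNA of exons 3 to 23, closed by a human growth hormone polyadenylation signal, precedes a mutant exon 3, so that cre switches the gene to a DNA polymerase of mitochondria (mtDNA polymerase) without proofreading (D257A). Ckmm-cre is driven by the promoter of muscle creatine kinase and acts in striated muscle cells, while the other cells of the heart, which were sampled too, are not its target. The 8 Ctrl hearts are labelled only as controls, and their genotype is not given further in the sources used here. The comparison asks whether hearts with mtDNA mutagenesis in cardiomyocytes differ from controls in the transcripts of these genes.

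Mitochondria join and divide continuously. Mitofusins tether and merge the outer membranes, *Opa1* merges the inner membranes and shapes the cristae, and *Dnm1l* assembles into rings that constrict the organelle after adaptors on its surface have recruited it. Cristae are held at their necks by the MICOS complex, of which *Immt* and *Chchd3* encode core subunits. Cardiomyocytes are packed with mitochondria and depend on this machinery, and joint loss of the mitofusins from heart muscle is known to cause cardiomyopathy in mice. Much of its control is on the proteins, through cleavage, phosphorylation and ubiquitination, which RNA does not show.

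The promoter windows of the members were read from RefSeq (GRCm38.p6; 250 bases before to 50 after the start, 300 in all), a different build from the GRCm39 coordinates of the counts. All 10 genes had a window, 15 windows in all, since some genes have several starts. Short motifs of factors known to bind promoters of mitochondrial genes were searched on both strands. The ETS element CCGGAAGT lay in 4 of the 15 windows, belonging to *Mfn1*, *Fis1* and *Mief1*, and in 3.89% of all 32851 windows in the table. The core NRF1 motif GCATGCGC lay in 1 of the 15, that of *Opa1*, and in 2.71% of all windows. The C/EBP-ATF response element TGATGNAA (3.97% of all windows), the ERR element TCAAGGTCA (0.423%) and the YY1 core AAGATGGC (2.75%) matched 0 of the 15. The windows of *Opa1*, *Mfn1* and *Mief1* are shown because they hold such matches, which stand in capitals. In *Opa1* the motif matched on each strand, in overlapping positions. A match describes the letters only.
Opa1, chr16:29579084-29579383, plus strand: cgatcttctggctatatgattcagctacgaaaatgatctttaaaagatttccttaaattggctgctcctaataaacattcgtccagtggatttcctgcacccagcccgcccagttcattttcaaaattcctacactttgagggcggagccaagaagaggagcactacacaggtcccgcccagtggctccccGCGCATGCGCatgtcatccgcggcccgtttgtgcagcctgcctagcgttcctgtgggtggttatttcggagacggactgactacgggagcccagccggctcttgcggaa
Mfn1, chr3:32529232-32529531, plus strand: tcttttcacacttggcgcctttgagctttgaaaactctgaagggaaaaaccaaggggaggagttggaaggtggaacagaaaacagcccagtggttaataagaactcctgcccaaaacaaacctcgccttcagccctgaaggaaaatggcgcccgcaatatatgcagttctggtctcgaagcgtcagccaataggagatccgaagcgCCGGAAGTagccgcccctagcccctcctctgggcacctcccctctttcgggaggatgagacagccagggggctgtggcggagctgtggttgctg
Mief1, chr15:80233830-80234129, plus strand: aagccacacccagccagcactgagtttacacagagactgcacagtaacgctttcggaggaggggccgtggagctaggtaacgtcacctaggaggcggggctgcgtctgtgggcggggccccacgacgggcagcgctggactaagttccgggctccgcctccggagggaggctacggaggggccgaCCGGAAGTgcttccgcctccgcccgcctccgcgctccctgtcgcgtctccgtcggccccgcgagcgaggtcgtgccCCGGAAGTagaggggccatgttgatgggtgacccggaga

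Total counts per heart lay between 34425783 and 46486964 in Ctrl and between 32915159 and 40175122 in hMut, and each member held between 919 and 49167 counts in each library. Levels are given in CPM (read counts relative to library size, after TMM scaling for differences in composition). Of the 16195 genes, 749 (4.62%) passed an adjusted p of 0.05 in the quasi-likelihood test of edgeR, with p-values adjusted by Benjamini-Hochberg. *Polg*, the targeted gene, ranged from 27.1 to 47.2 CPM in Ctrl hearts (median 32.0) and from 47.0 to 65.1 CPM in hMut hearts (median 59.6), a log2 fold change of 0.74 (SE 0.10, edgeR adjusted p = 0.000448). All 15 cardiomyocyte markers fixed for the check were well expressed, with the lowest at 525 CPM in any heart. The libraries hMut 6 and hMut 9 stood apart from the rest. Their summed cardiomyocyte markers were 43071 and 41109.8 CPM, against 58049 to 69345 in Ctrl hearts, and their summed myeloid markers 1475 and 760 CPM, against 284 to 426. Values without these 2 hearts are given beside the results below.

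Per kilobase of gene length, the members formed a graded series in Ctrl hearts. *Mfn2* was the most abundant at 196 ± 12.5 CPM per kilobase (SD, n = 8), followed by *Chchd3* at 117 ± 4.30, *Mfn1* at 69.5 ± 4.56 and *Immt* at 43.9 ± 2.32 CPM per kilobase. *Fis1* (36.9 ± 1.604), *Opa1* (34.4 ± 2.59) and *Dnm1l* (31.8 ± 0.972) followed closely, and *Mief2* (12.5 ± 0.814), *Mff* (11.6 ± 0.190) and *Mief1* (3.38 ± 0.195) were the lowest. The ranges over the 8 Ctrl hearts overlapped between neighbours from *Immt* through *Fis1* and *Opa1* to *Dnm1l*, and between *Mief2* and *Mff*. The ranges of *Immt* and *Fis1* only touched, with the lowest *Immt* value at 38.80 and the highest *Fis1* value at 38.88 CPM per kilobase. Differences between neighbours within hearts were not tested. Every other pair of neighbours was apart, by 1.58-fold between *Mfn1* and *Immt* and by up to 3.44-fold between *Mff* and *Mief1*. The order in hMut hearts was the same apart from an exchange of *Mief2* (11.2 ± 1.43) and *Mff* (11.3 ± 0.691; SD, n = 9), whose ranges again overlapped. The lengths are those of the deposited table, and a gene whose heart transcripts are shorter than its listed length would be set too low.

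**Figure D1:**
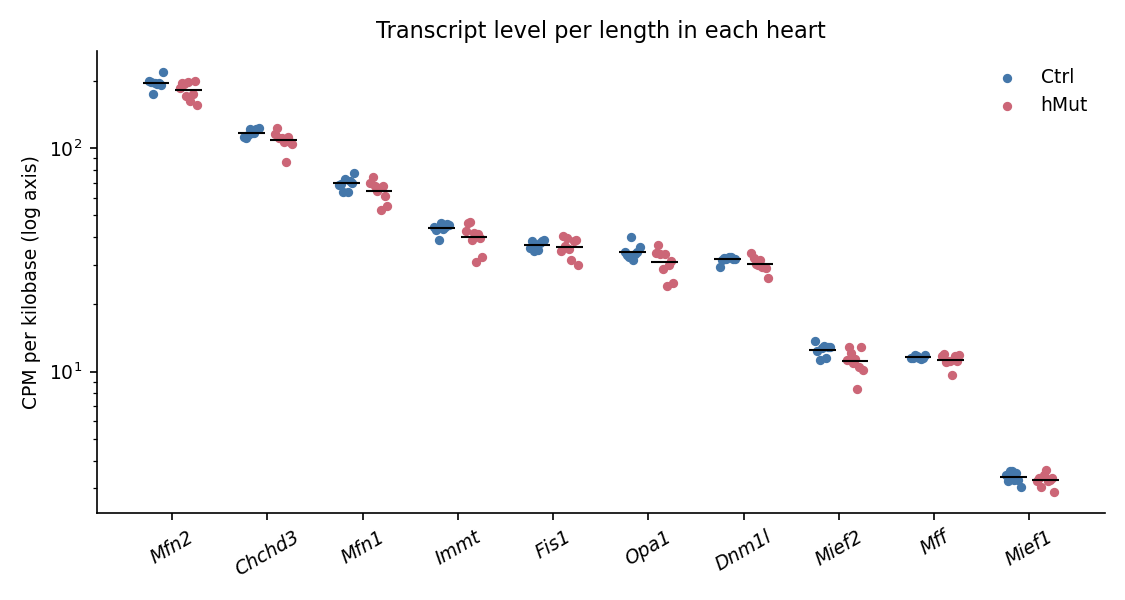
Level of each member in each heart, in CPM per kilobase of gene length on a log axis, for 8 Ctrl hearts (blue) and 9 hMut hearts (red), with the group mean as a line. The genes run from *Mfn2* (196 CPM per kilobase in Ctrl) down to *Mief1* (3.38), and the groups overlap for each gene.

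No member differed between hMut and Ctrl hearts past the threshold: 0 of 10, where 4.62% of all genes tested did. At an unadjusted p under 0.05 it was 2 of 10, *Opa1* and *Mief2*, against 25.8% of all genes. DESeq2 called 0 of 10, against 9.94% of the genes it tested, and limma-voom with quality weights 0 of 10, against 12.8%. The 10 log2 fold changes lay between -0.17 and -0.03 with a median of -0.11, all below 0 where 49.5% of all genes were, but 8 of the 10 were above 0 when libraries were scaled by their totals alone and 10 of 10 when scaled on 15 cardiomyocyte genes. The smallest adjusted p was 0.157, for *Mief2*. Every 95% interval lay within folds of 0.799 to 1.06, and 8 of the 10 included a log2 fold change of 0.

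The 2 outer-membrane fusion genes gave similar values. *Mfn2*, a mitofusin that also tethers mitochondria to the endoplasmic reticulum, ranged from 905 to 1142 CPM in Ctrl hearts (median 1018) and from 807 to 1037 CPM in hMut hearts (median 961). Its log2 fold change was -0.11 (SE 0.059, 95% interval -0.23 to 0.01, edgeR adjusted p = 0.236). The hMut 9, hMut 6 and hMut 4 hearts lay below every Ctrl heart, and the other 6 lay within the Ctrl range. *Mfn1*, the second mitofusin, ranged from 388 to 473 CPM in Ctrl (median 424) and from 323 to 456 CPM in hMut (median 404), a log2 fold change of -0.11 (SE 0.064, 95% interval -0.25 to 0.02, edgeR adjusted p = 0.263). Again 3 hMut hearts lay below the Ctrl range, with hMut 6 and hMut 9 the lowest. Without those 2 hearts the log2 fold change was -0.06 for *Mfn2* (adjusted p = 0.548) and -0.05 for *Mfn1* (adjusted p = 0.636).

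*Opa1*, the inner-membrane fusion GTPase, ranged from 249 to 314 CPM in Ctrl (median 267) and from 190.0 to 289 CPM in hMut (median 247). In 5 of the 9 hMut hearts it was below every Ctrl heart, and the groups overlapped in the rest. The log2 fold change was -0.16 (SE 0.077, 95% interval -0.32 to -0.00086, edgeR adjusted p = 0.192), and it was -0.08 with hMut 6 and hMut 9 left out (adjusted p = 0.469).

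*Dnm1l*, the fission GTPase also called Drp1, was among the steadier members in Ctrl hearts, from 154 to 169.5 CPM (median 166), and ranged from 137 to 177 CPM in hMut hearts (median 156). The hMut values spread to both sides of the Ctrl range, with 4 hearts below and 1 above it. Its log2 fold change was -0.07 (SE 0.044, 95% interval -0.16 to 0.02, edgeR adjusted p = 0.320), and -0.03 without hMut 6 and hMut 9.

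The 4 genes for the outer-membrane adaptors of *Dnm1l* gave unequal values. *Mff*, the main recruiter of *Dnm1l* in many cells, had the smallest spread relative to its level in Ctrl hearts (coefficient of variation 1.63%), from 111 to 116 CPM (median 112), and lay between 94.6 and 117 CPM in hMut hearts (median 109). Of the hMut hearts, 5 lay below that range and 1 above it, and the log2 fold change was -0.04 (SE 0.038, 95% interval -0.12 to 0.04, edgeR adjusted p = 0.492), or -0.02 without hMut 6 and hMut 9. *Fis1*, a tail-anchored outer-membrane protein linked to fission, ranged from 59.7 to 66.6 CPM in Ctrl (median 63.4) and from 51.2 to 69.4 CPM in hMut (median 62.4), a log2 fold change of -0.03 (SE 0.056, 95% interval -0.15 to 0.09, edgeR adjusted p = 0.757). With hMut 6 and hMut 9 left out its log2 fold change was 0.03.

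*Mief2*, which encodes an adaptor that binds *Dnm1l*, ranged from 30.5 to 37.1 CPM in Ctrl (median 34.8) and from 22.8 to 35.2 CPM in hMut (median 30.7). Its lowest values were in hMut 6 and hMut 9, and 4 hMut hearts lay below the Ctrl range. The log2 fold change was -0.17 (SE 0.072, 95% interval -0.32 to -0.02, edgeR adjusted p = 0.157), and it was -0.10 with hMut 6 and hMut 9 left out (adjusted p = 0.349). Its paralog *Mief1* ranged from 24.7 to 29.2 CPM in Ctrl (median 27.3) and from 23.5 to 29.4 CPM in hMut (median 26.6), largely the same range, with a log2 fold change of -0.04 (SE 0.047, 95% interval -0.14 to 0.05, edgeR adjusted p = 0.563), or -0.02 without those hearts.

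The cristae genes were both read deeply. *Immt*, which encodes mitofilin, the central subunit of MICOS, ranged from 440.5 to 523 CPM in Ctrl (median 503) and from 352 to 530.2 CPM in hMut (median 468). Here 2 hMut hearts lay below the Ctrl range and 2 above it, and the log2 fold change was -0.13 (SE 0.074, 95% interval -0.29 to 0.02, edgeR adjusted p = 0.259). *Chchd3*, a MICOS subunit that binds *Immt*, ranged from 323 to 356 CPM in Ctrl (median 339) and from 253 to 357 CPM in hMut (median 322). It had the most hMut hearts below the Ctrl range, 6 of 9, with 1 above it, and a log2 fold change of -0.11 (SE 0.053, 95% interval -0.22 to 0.0018, edgeR adjusted p = 0.199). Without hMut 6 and hMut 9 the log2 fold change was -0.05 for *Immt* (adjusted p = 0.632) and -0.06 for *Chchd3* (adjusted p = 0.416).

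**Figure D2:**
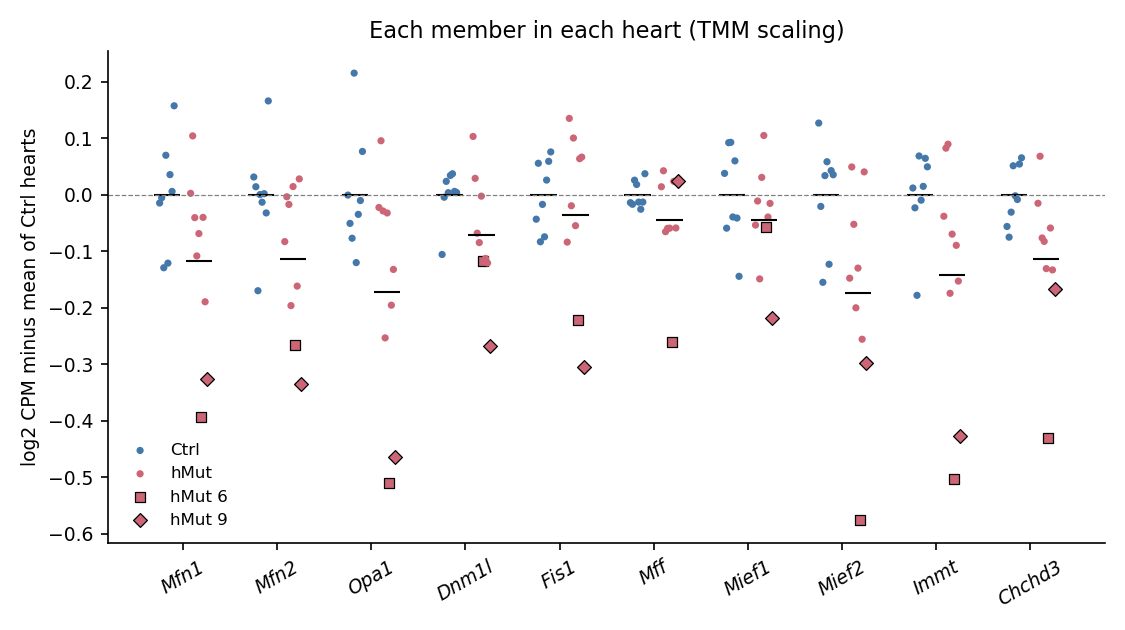
Each member in each heart as log2 CPM minus the mean of the Ctrl hearts, under TMM scaling, with the group mean as a line, the square for hMut 6 and the diamond for hMut 9. The lowest hMut value is in hMut 6 or hMut 9 for each of the 10 members, and under scaling on cardiomyocyte genes all 10 log2 fold changes are above 0.

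The lowest hMut value fell in hMut 6 or hMut 9 for 10 of the 10 members, and these hearts were the lowest pair for 7 of them. The median of the members' log2 deviations from the Ctrl mean was -0.33 in hMut 6 and -0.30 in hMut 9. In the other 7 hMut hearts it lay from -0.10 to 0.06, and over the Ctrl hearts from -0.08 to 0.06. In each of hMut 6 and hMut 9, 9 of the 10 members were below every Ctrl heart, as were 28.8% and 26.6% of all genes tested. The other 7 hearts held 19 of 70 member values below the Ctrl range, from 0 in hMut 2 to 5 in hMut 4 and in hMut 8. In these hearts 10.4% to 17.3% of all genes tested were below every Ctrl heart. Without hMut 6 and hMut 9 the members' median log2 fold change was -0.05, with 0 of 10 past the threshold where 2.67% of genes were.

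The cardiomyocyte markers moved with the members. Their median log2 deviation was -0.59 in hMut 6 and -0.71 in hMut 9, lay between -0.24 and 0.05 in the other hMut hearts, and between -0.13 and 0.07 in Ctrl hearts. Of the 15 markers, 15 had a log2 fold change below 0 (median -0.24), where 49.5% of all genes did. Past the threshold were 0 of 15, where 4.62% of all genes were. At an unadjusted p under 0.05 in edgeR's test it was 10 of 15, against 25.8% of all genes. Summed over the list they ranged from 58049 to 69345 CPM in Ctrl and from 41109.8 to 67880.3 CPM in hMut. The 12 myeloid markers, none of which was at 0 in any heart, summed to 284 to 426 CPM in Ctrl and 356 to 1475 CPM in hMut. The 10 fibroblast markers summed to 992 to 1165 CPM in Ctrl and 987 to 2208 CPM in hMut, the highest in hMut 6. The part of these cell types in the members' values was not tested. In bulk tissue, fewer cells of a type and less RNA per cell cannot be told apart.

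**Figure D3:**
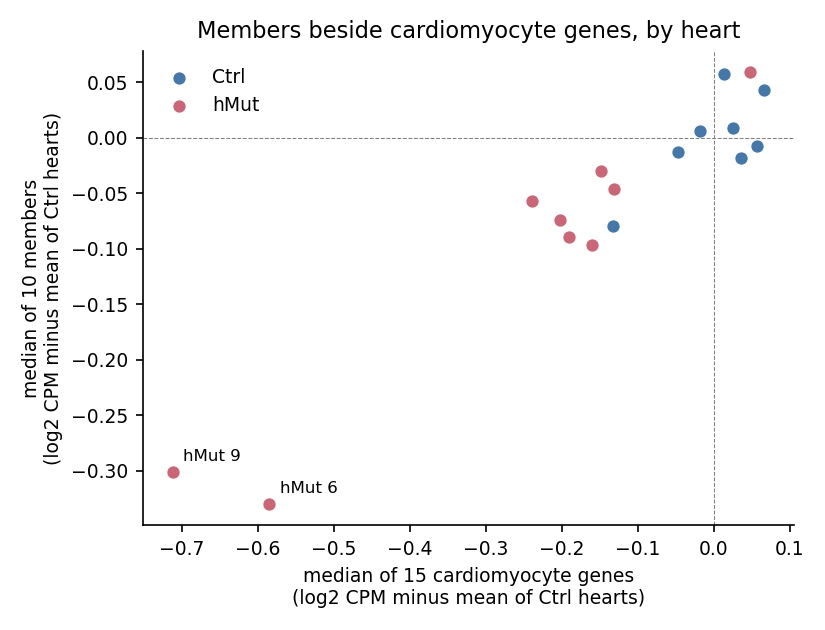
Median log2 deviation from the Ctrl mean over the 10 members (vertical) and over 15 cardiomyocyte genes (horizontal), with 1 point per heart, Ctrl in blue and hMut in red, under TMM scaling. The hearts hMut 6 (-0.59, -0.33) and hMut 9 (-0.71, -0.30) lie far from the other 15.

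The sign of the members' values depended on the scaling. With library totals alone the median log2 fold change of all genes was 0.17 and that of the members 0.05, while with scaling on the 15 cardiomyocyte genes these were 0.26 and 0.13. Relative to the median of all genes, the members were at -0.11 under TMM, -0.12 under library totals and -0.12 under cardiomyocyte scaling. A change of scaling moves all genes nearly alike, so these values are close by construction and are not separate results. With hMut 6 and hMut 9 left out, the relative value under TMM was -0.04. Under library totals *Fis1* (0.13, edgeR adjusted p = 0.0270) and *Mff* (0.12, edgeR adjusted p = 0.0146) were higher past the threshold, 2 of 10 where 34.3% of all genes were. Under cardiomyocyte scaling it was 8 of 10, all but *Opa1* and *Mief2*, where 45.8% of all genes were. The share of counts from mtDNA genes, which enters the totals, was 23.5% to 30.9% in Ctrl and 15.9% to 23.0% in hMut.

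**Figure D4:**
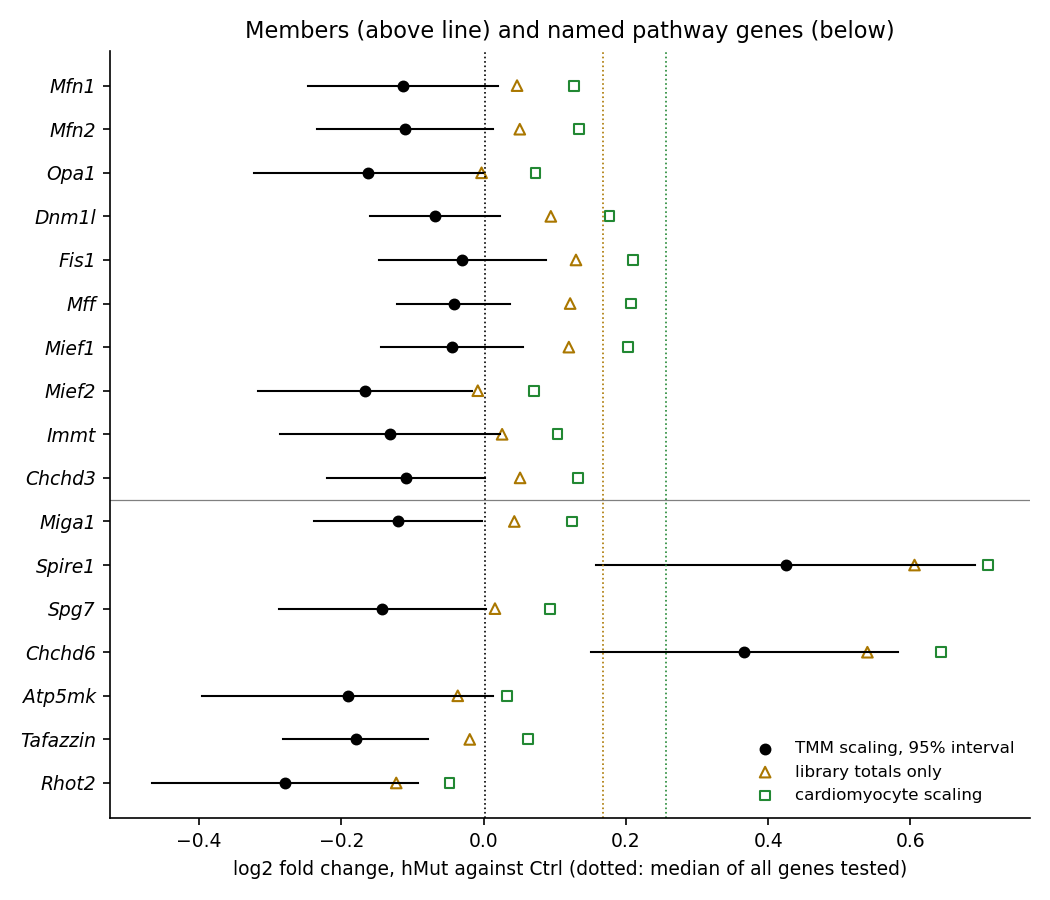
Log2 fold change of hMut against Ctrl for the 10 members (above the line) and 7 named genes of the pathway lists (below), with 95% intervals under TMM scaling and hollow marks under 2 other scalings. Dotted lines mark the median of all genes tested under each scaling (0.00, 0.17 and 0.26): the members lie to the left of the line of their own scaling.

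A ratio of members within a heart does not depend on scaling. The log2 ratio of *Mfn1* to *Mfn2* was -1.26 ± 0.058 in Ctrl (SD, n = 8) and -1.27 ± 0.12 in hMut (SD, n = 9), a difference of -0.0045 (two-sided exact permutation p = 0.924, adjusted p = 0.924 over 4 ratios). *Mief1* to *Mief2* was -0.31 ± 0.15 in Ctrl and -0.19 ± 0.20 in hMut (difference 0.13, exact permutation p = 0.145, adjusted p = 0.289). *Opa1* to *Dnm1l*, inner-membrane fusion against fission, was 0.71 ± 0.12 in Ctrl and 0.61 ± 0.14 in hMut (difference -0.10, exact permutation p = 0.141, adjusted p = 0.289). *Immt* to *Chchd3* was 0.55 ± 0.066 in Ctrl and 0.52 ± 0.12 in hMut (difference -0.03, exact permutation p = 0.567, adjusted p = 0.756). None of the 4 differences exceeded the spread between hearts, and the groups overlapped in each. Of the 9 hMut hearts, 6 lay outside the Ctrl range for *Mfn1* to *Mfn2*, 3 for *Opa1* to *Dnm1l*, 2 for *Immt* to *Chchd3* and 1 for *Mief1* to *Mief2*. No ratios of other genes were read for comparison. The hMut 6 heart had the highest *Mief1* to *Mief2* value (0.20) and the lowest *Opa1* to *Dnm1l* value (0.32). The lowest *Immt* to *Chchd3* value (0.29) was in hMut 9, and the lowest *Mfn1* to *Mfn2* value (-1.48) in hMut 8.

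**Figure D5:**
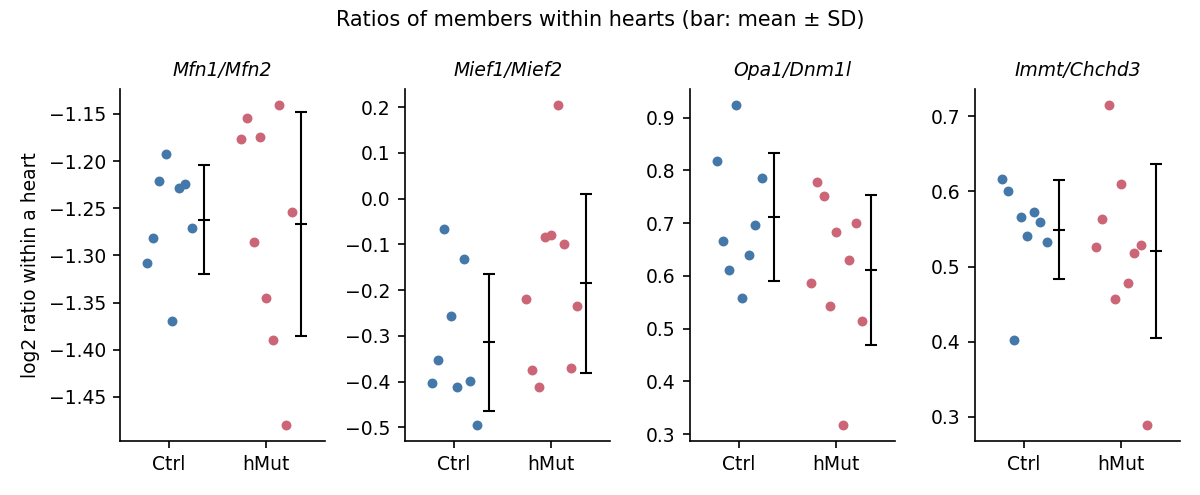
Log2 ratio of paired members within each heart (points), with the mean ± SD of 8 Ctrl and 9 hMut hearts as bars at the right of the points and an axis of its own for each ratio. The groups overlap in all 4 ratios, and hMut 6 lies at 0.20 for *Mief1* to *Mief2* and at 0.32 for *Opa1* to *Dnm1l*.

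Partner genes were compared across hearts within each group, for 5 pairs in 2 groups. In hMut hearts *Immt* and *Chchd3* varied together (Pearson's r = 0.84, exact permutation p = 0.00138, adjusted p = 0.0138 over 10 tests, n = 9; Spearman's rho = 0.80, exact permutation p = 0.0138, adjusted p = 0.0691). Hearts were left out by their distance from the group median of the first-named gene of a pair. Without the 2 farthest for *Immt*, hMut 6 and hMut 9, r was 0.61. *Opa1* and *Dnm1l* gave r = 0.77 in hMut hearts (exact permutation p = 0.0130, adjusted p = 0.0649, n = 9; rho = 0.82, exact permutation p = 0.0108, adjusted p = 0.0691) and 0.69 without those hearts. For *Mfn1* and *Mfn2*, r was 0.68 in hMut hearts (exact permutation p = 0.0438, adjusted p = 0.110; rho = 0.42, exact permutation p = 0.270, adjusted p = 0.385) and 0.02 without them, so that the relation rests on these 2 hearts. In Ctrl hearts the same pair gave r = 0.81 (exact permutation p = 0.0244, adjusted p = 0.0814, n = 8; rho = 0.52, exact permutation p = 0.197, adjusted p = 0.385), and 0.14 without Ctrl 3 and Ctrl 8. The other 6 gave r between -0.39 and 0.57, with adjusted p from 0.250 to 0.875 (exact permutation, n = 8 or 9). Their rho lay between -0.52 and 0.74, with adjusted p from 0.153 to 0.935 (exact permutation). Among these 6, *Immt* and *Chchd3* in Ctrl hearts gave r = 0.57 and rho = 0.74, and r = 0.85 without Ctrl 3 and Ctrl 4. *Opa1* and *Dnm1l* in Ctrl hearts gave r = -0.18 and rho = -0.52. The part of the hearts' content of cardiomyocyte transcripts in these correlations was not tested.

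Among the genes whose level was most like that of *Mief2*, the member with the smallest adjusted p, over 17 hearts after the group means were taken off, were *Fbxo31* (r = 0.93) and *Gm31600* (r = 0.91), out of 16194 genes compared. *Fbxo31* encodes an F-box protein. This is a description of these libraries, in which hMut 6 and hMut 9 carry much of the spread.

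Other genes of the pathway were read in 7 lists, 55 genes of which 53 were tested. In edgeR's test 2 of the 53 were past the threshold, where 4.62% of all genes tested were. *Chchd6*, a MICOS subunit and paralog of *Chchd3*, was among 10 MICOS subunits and partners the single gene past the threshold in edgeR's test. It ranged from 6.05 to 8.60 CPM in Ctrl (median 7.15) and from 6.85 to 13.2 CPM in hMut (median 9.74), with 6 of 9 hMut hearts above every Ctrl heart. It rose by a log2 fold change of 0.37 (SE 0.10, edgeR adjusted p = 0.0487), and by 0.27 with an adjusted p of 0.104 when hMut 6 and hMut 9 were left out. The median of the 10 was -0.06. DESeq2 called only *Chchd6* of the 10, where it called 9.94% of all genes. Limma-voom with quality weights called *Chchd6* higher and *Mtx3* lower, where it called 12.8%. The log2 fold change of *Chchd6* was above 0 in each alternative run. Its call was lost under upper-quartile scaling (adjusted p = 0.0569), no filter (0.0760), sex as a covariate (0.0622) and the replicate block (0.0721). It was also lost in 15 of the 17 fits that left out 1 heart.

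*Tafazzin* encodes the transacylase that remodels cardiolipin, the lipid of the inner membrane that OPA1 binds. In edgeR's test it was the single gene past the threshold among 8 cardiolipin genes. It ranged from 48.6 to 58.4 CPM in Ctrl (median 55.6) and from 41.6 to 54.4 CPM in hMut (median 48.8). Of the 9 hMut hearts, 4 lay below every Ctrl heart and 5 within the Ctrl range, and all 9 were below the Ctrl median. Its log2 fold change was -0.18 (SE 0.048, edgeR adjusted p = 0.0414), but 0.06 under cardiomyocyte scaling and -0.14 without hMut 6 and hMut 9 (adjusted p = 0.0961). The call was also lost with library totals only (adjusted p = 0.744), no filter (0.113), sex as a covariate (0.0600), the replicate block (0.135) and in 13 of the 17 fits that left out 1 heart. The list's median was 0.03. DESeq2 and limma-voom with quality weights each called 3 genes of this list, *Tafazzin* and *Lclat1* lower and *Prelid1* higher. They called 9.94% and 12.8% of all genes.

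In the other 5 lists 0 genes passed in edgeR's test. Of the 5 fusion regulators, all below 0 (median -0.07; none past the threshold, 1 at an unadjusted p under 0.05), *Miga1*, a mitoguardin, had the smallest adjusted p (-0.12, adjusted p = 0.186). Of 12 fission regulators tested (median -0.01), 2 were at an unadjusted p under 0.05, and *Spire1*, an actin nucleator, was at 0.42 (edgeR adjusted p = 0.0608), with 5 of 9 hMut hearts above every Ctrl heart. The 8 genes that process *Opa1* or scaffold its proteases had a median of -0.03, with *Spg7*, a subunit of the matrix protease, at -0.14 (adjusted p = 0.202). The 5 ATP synthase subunits that join its dimers had a median of -0.15, with *Atp5mk* at -0.19 (adjusted p = 0.220). Of 5 motility genes tested (median -0.03), *Rhot2*, an outer-membrane GTPase of mitochondrial transport, was at -0.28 (adjusted p = 0.0738), with 7 of 9 hMut hearts below every Ctrl heart. At an unadjusted p under 0.05 in edgeR's test were 4 of 10 MICOS subunits and partners and 4 of 8 cardiolipin genes. In the 5 lists of this paragraph together it was 4 genes, where 25.8% of all genes tested were. DESeq2 called 2 genes of these lists, *Spire1* higher and *Rhot2* lower, where it called 9.94% of all genes. Limma-voom with quality weights called 3, the same 2 genes and *Dnm2*, a dynamin, higher, where it called 12.8% of all genes. Without hMut 6 and hMut 9 the log2 fold changes were 0.28 for *Spire1*, -0.07 for *Spg7*, -0.08 for *Atp5mk*, -0.18 for *Rhot2* and -0.09 for *Miga1*. The medians stand beside 0.00 over all genes.

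Some members share exon bases with a gene on the opposite strand in the GENCODE vM39 annotation (GRCm39). The strand setting of the counting is not given in the sources used here, so their counts are uncertain. The vM39 exon bases exceed the lengths of the deposited table (13473 against 6114 for *Mfn1*, 7286 against 5203 for *Dnm1l*). The shares below therefore do not give the part of the counted bases. The shared part was 49.3% of the exon bases of *Dnm1l* (with *Yars2*), 40.4% of *Mfn1* (with *Gnb4*), 27.1% of *Mief2* (with *Flii*) and 11.8% of *Mfn2* (with *Fv1*). *Flii* was at 125 CPM on average, above *Mief2*, and its log2 fold change was -0.03 (edgeR adjusted p = 0.694). *Yars2* (22.02 CPM), *Gnb4* (19.4 CPM) and *Fv1* (13.8 CPM) were far below their partners. *Opa1* and *Chchd3* shared no exon base with another gene. The genes lie apart in the genome (GRCm39, as in the deposited table). *Opa1* (29398152 to 29473702) and *Dnm1l* (16130094 to 16176823) are on chromosome 16, and *Immt* (71808315 to 71854372) and *Chchd3* (32767911 to 33037195) on chromosome 6. *Mfn1* is on chromosome 3 (32583614 to 32633388), *Mfn2* on chromosome 4 (147958056 to 147989161), *Mff* on chromosome 1 (82702611 to 82730115), *Fis1* on chromosome 5 (136982129 to 136995088), *Mief1* on chromosome 15 (80118219 to 80137572) and *Mief2* on chromosome 11 (60619224 to 60623777).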

How the data were processed

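Bulk RNA-seq was measured in 17 hearts, 9 hMut and 8 Ctrl, grouped by the depositors' sample titles. After poly(A) selection and sequencing (NovaSeq X Plus), the authors trimmed reads by fastp, mapped them onto GRCm39 by HISAT2 (2.2.1) and assigned them to genes by featureCounts (2.0.6). The deposited table holds raw read counts, without normalization, and DESeq2 1.42.0 is named for the authors' own testing.

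Counts were tested here with edgeR 4.0.16 (R 4.3.3): TMM scaling, the filterByExpr filter, glmQLFit and glmQLFTest with condition as the only term, and Benjamini-Hochberg adjustment over all genes tested, with a threshold of 0.05. Standard errors are the log2 fold change divided by the root of F. The steps were tested on simulated data. Correlations and ratios used log2 CPM with a prior count of 2, with exact tests over 24310 divisions of the hearts or over all pairings (scipy 1.17.1 and numpy 2.4.6 in Python 3.11.15).

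The members and lists were chosen with earlier results of these data known. The text names all members, in each of 7 hand-written pathway lists the genes past the threshold and the gene with the smallest adjusted p, *Polg*, and the 3 genes most like the member with the smallest adjusted p, of which 1 is not reported here. *Flii*, *Yars2*, *Gnb4* and *Fv1* are named for their overlap with members. *Dnm2*, *Mtx3*, *Lclat1* and *Prelid1* were named after their values were seen.

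The alternatives tried were library totals only, upper-quartile and RLE normalization, DESeq2, protein-coding genes without mtDNA genes, scaling on 15 cardiomyocyte genes, no filter, at least 1 CPM in 8 libraries, sex as a covariate (read from the counts), replicate number as block, limma-voom (limma 3.58.1) with quality weights, 2 hearts left out together, and each heart left out in turn. By the counts of sex-linked genes, Ctrl held 3 female and 5 male hearts, and hMut 2 female and 7 male. Depth was 32915159 to 46486964 counts per library, so that counting error is small for the members. Libraries of a group differed by more than sampling noise in each of 64 pairs. The p-values set a group difference against the spread between these mice and treat the mice as independent. The labels do not say more of how the mice were related, so that independence could not be checked.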

Additional observations from a re-analysis of the deposited data

Results flagged for a closer look

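Tests for a single stray heart were run on the 10 members and 4 ratios in each group, 28 in all, and 4 were past the 95% critical value, where chance gives about 5%. *Dnm1l* was at 154 CPM in Ctrl 1, below the next Ctrl heart at 165 CPM. *Immt* was at 440.5 CPM in Ctrl 3, below the next at 490.4 CPM, and the log2 ratio of *Immt* to *Chchd3* was 0.40 in the same heart, below the next at 0.53. *Mff* was at 94.6 CPM in hMut 6, below the next hMut heart at 108 CPM. Leaving out any of these hearts brought 0 members past the threshold.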

How the results depend on the processing

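The members' median kept its direction in 9 of the 11 alternatives fitted to all 17 hearts, and the calls on members (0 of 10) changed under 2 settings only. With library totals only, 2 members and 26 of the pathway genes passed (5672 genes in all), the members' median was 0.051, and the log2 fold changes were 0.047 (*Mfn1*), 0.051 (*Mfn2*), 0.095 (*Dnm1l*), 0.13 (*Fis1*), 0.12 (*Mff*), 0.12 (*Mief1*), 0.026 (*Immt*), 0.051 (*Chchd3*), 0.043 (*Miga1*) and 0.016 (*Spg7*). With scaling on cardiomyocyte genes, 8 members and 35 pathway genes passed (7521 in all), the median was 0.13, and the values were 0.13 (*Mfn1*), 0.13 (*Mfn2*), 0.073 (*Opa1*), 0.18 (*Dnm1l*), 0.21 (*Fis1*), 0.21 (*Mff*), 0.20 (*Mief1*), 0.071 (*Mief2*), 0.10 (*Immt*), 0.13 (*Chchd3*), 0.033 (*Atp5mk*), 0.062 (*Tafazzin*), 0.12 (*Miga1*) and 0.094 (*Spg7*). These scalings move every gene by their own construction.

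DESeq2 called 1548 genes and 6 pathway genes, limma-voom 2081 and 8, upper-quartile scaling 1 pathway gene, no filter 463 and 0, and sex as a covariate 0 pathway genes. Replicate numbers are library numbers and did not pair the hearts: correlations of same-numbered hearts ran from -0.23 to 0.34 with 1 of 8 above 0.1, and the replicate block gave 195 genes, 0 members and 0 pathway genes. Without hMut 6 and hMut 9 it was 431 genes and 0 pathway genes, the members' median was -0.048, *Fis1* was at 0.031, and the ratio differences were 0.0113 for *Mfn1* to *Mfn2* and 0.0109 for *Immt* to *Chchd3*. The cause of these changes was not tested.

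Leaving out each heart in turn gave 395 to 1792 genes, 0 members in all 17 fits, 0 to 7 pathway genes and a members' median from -0.13 to -0.08. The gene count moved by over 1.5 times without Ctrl 1 (486), Ctrl 2 (486), Ctrl 5 (443), Ctrl 6 (432), Ctrl 7 (437), Ctrl 8 (428), hMut 1 (1182), hMut 2 (1792), hMut 5 (395), hMut 6 (497), hMut 7 (400) and hMut 9 (415). In the same fits *Fis1* ran from -0.052 to 0.0016, being above 0 without hMut 9 alone. The difference in ratio ran from -0.020 to 0.022 for *Mfn1* to *Mfn2*, above 0 in 7 of 17 fits, and from -0.053 to 0.00062 for *Immt* to *Chchd3*, above 0 without hMut 9. *Chchd6* had adjusted p from 0.0112 to 0.0892 and *Tafazzin* from 0.0116 to 0.0836. The correlation of *Dnm1l* and *Mff* in Ctrl was 0.12 by Pearson's r, -0.048 by Spearman's rho and -0.028 without 2 hearts. The members held at least 919 counts in each library, and their 95% intervals reach down to a fold of 0.799.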

Other observations

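The members varied more over hMut than over Ctrl hearts. The coefficient of variation of CPM was larger in hMut for 10 of 10 members (median 9.53% against 5.54%), as it was for 68.2% of all genes tested and for 14 of 15 cardiomyocyte markers. It was 13.8% against 7.52% for *Opa1*, 13.5% against 5.29% for *Immt* and 6.13% against 1.63% for *Mff*. Without hMut 6 and hMut 9 it was larger for 7 of 10 members (median 5.95%), against 48.7% of all genes, and *Mff* (3.32%) and *Dnm1l* (5.83% against 3.06% in Ctrl) still had wider spreads than in Ctrl. For each member the lowest hMut value was in hMut 6 or hMut 9, so leaving these hearts out narrows its hMut range. No Ctrl heart was left out. No test of spread was made.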
